A study of Mus musculus with 6 samples.

Results

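Keratin transcripts were examined in 6 tumors grown from B16F10 cells, a mouse melanoma line, 3 from the hind footpad and 3 from the flank skin, with 1 RNA-sequencing library for each tumor. The set held every listed gene whose symbol is Krt followed by a number and, in some genes, 1 letter, which gave 54 of 45777 genes. By the labels all 6 hosts were Foxn1-/- mice aged 8 weeks, so the lack of Foxn1, the nude allele, was shared by both sites and no host with intact Foxn1 was compared. The study's methods describe both C57BL/6J and Foxn1-null hosts for grafts of these cells and name no host for the sequenced tumors. They also describe injection at several sites of 1 mouse, but the labels tie no footpad tumor to a flank tumor. By the labels RNA was extracted from removed tumors, whereas the methods speak of isolated tumor cells without naming how they were separated from host skin.

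Keratins are the intermediate filament proteins of epithelial cells and assemble as pairs of a type I and a type II chain. In the epidermis, dividing basal cells make Krt5 and Krt14, and cells that leave the basal layer switch to Krt1 and Krt10, with Krt2 added in the upper layers and Krt9 typical of volar skin, the thick hairless skin of palms, soles and footpads. Hair follicles use further keratins in the inner root sheath and in the hair shaft, and simple epithelia use Krt8, Krt18 and Krt19. Melanocytes make pigment and are not an epithelium, so keratin reads in a melanoma graft can come from host skin as well as from the tumor cells, and in bulk tumors fewer cells of a type and less RNA per cell cannot be told apart.

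Total depth was between 46529649 and 66364366 reads per tumor. Levels are given as CPM, counts scaled to a common library size by TMM, which corrects for differences in library makeup. A count of 3 reads was taken as the detection limit and corresponded to 0.0437 to 0.0673 CPM. This limit and the intervals given here cover counting error only. The melanocyte list (Pmel, Tyr, Tyrp1, Dct, Mlana, Sox10, Mitf and Slc45a2) summed to between 10060.0 and 25501 CPM in every tumor, so all 6 libraries carried the transcripts their label calls for. Tumors of 1 site differed by far more than counting error, with a chi-square per gene of 58.6 to 511, and p-values measure the spread between these 6 tumors.

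Most keratin reads came from 1 tumor. The second footpad tumor held 75492 keratin reads, against 2183 and 1050 in the first and the third footpad tumors. The flank tumors held 759, 2074 and 2028 keratin reads. As a share of all reads this was 0.1138% in footpad tumor 2 (95% Wilson interval 0.1129% to 0.1146%), and in the other 5 tumors it lay between 0.001214% (0.001131% to 0.001304%) in flank tumor 1 and 0.004692% (0.004499% to 0.004893%) in footpad tumor 1.

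After scaling, the summed keratin level was 49.0, 1100.0 and 21.4 CPM in the 3 footpad tumors and 13.1, 35.5 and 32.4 CPM in the 3 flank tumors. Footpad tumor 2 was 22.5 times the next highest tumor and held 87.9% of the summed keratin CPM of all 6. The sites overlapped, because footpad tumor 3 lay below flank tumors 2 and 3. The reads of footpad tumor 2 fell on few genes: Krt2, Krt10, Krt1, Krt14, Krt24 and Krt5 took 95.4% of them, and Krt2 alone took 53.7%. Without Krt2, footpad tumor 2 still held 78.1% of the summed keratin CPM.

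**Figure D1:**
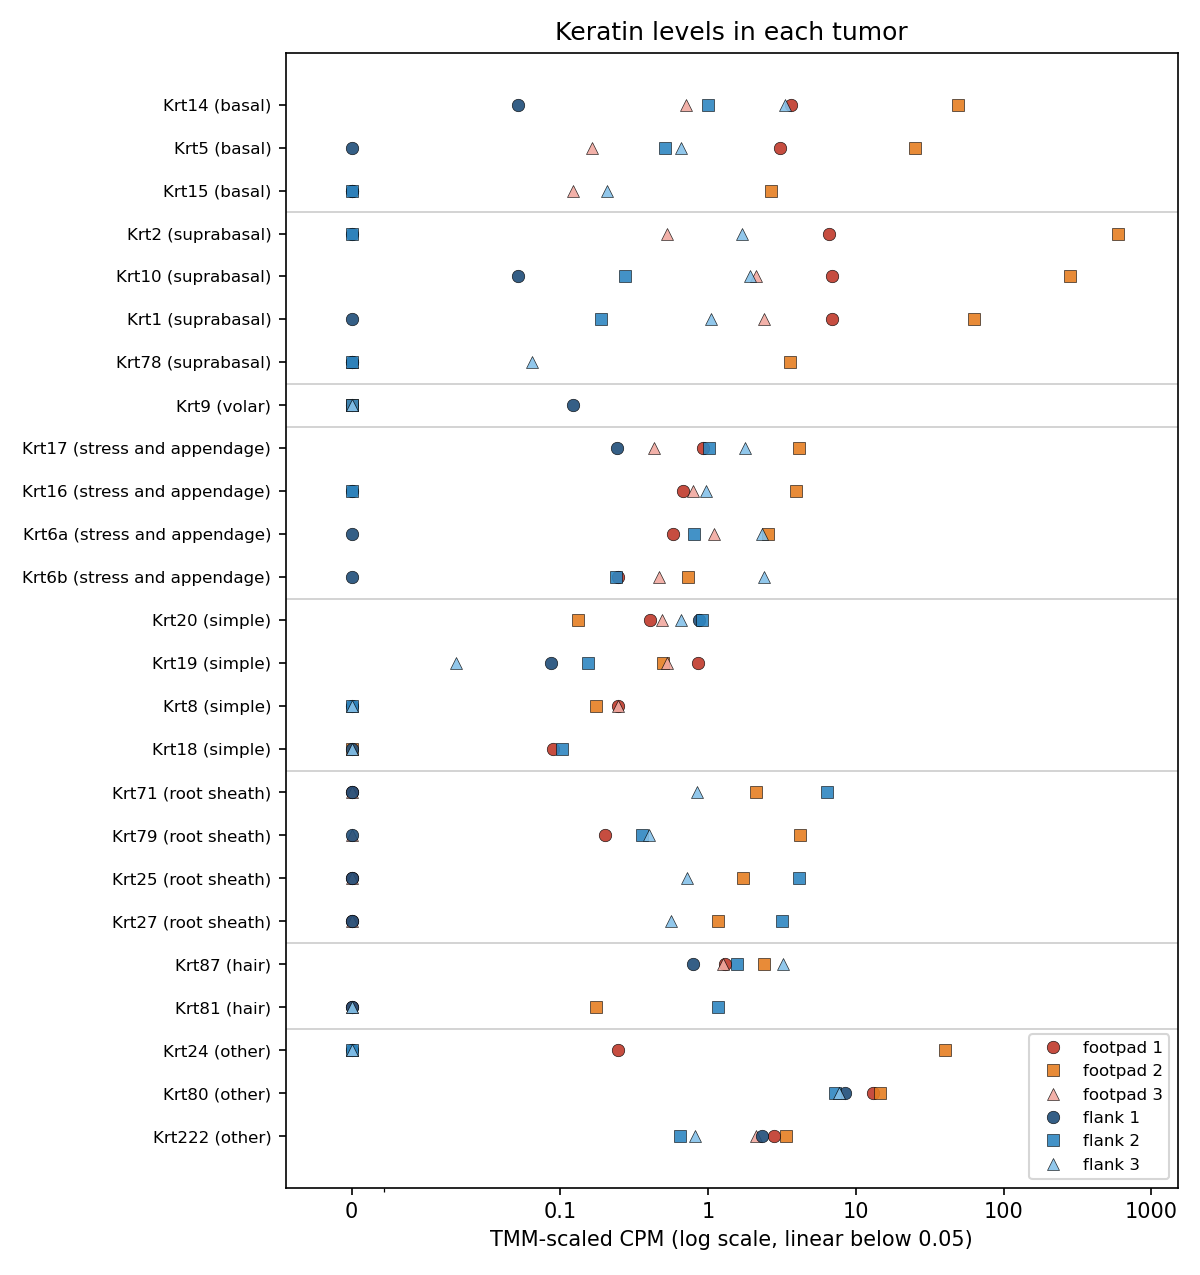
TMM-scaled CPM of the keratins described most fully, with the class of each in parentheses, on a log scale that is linear below 0.05; each point is 1 tumor, red shades for footpad and blue shades for flank, with the replicate given by the shape. Footpad tumor 2 lies far to the right for Krt2 (591 CPM), Krt10 (281 CPM) and Krt24 (39.9 CPM), flank tumor 2 is highest for Krt71, Krt25 and Krt27, and Krt80 lies between 7.25 and 14.6 CPM in every tumor.

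Of the 54 keratins, 45 had over 3 reads in at least 1 tumor, 20 reached 1 CPM in at least 1 tumor and 5 had over 3 reads in every tumor. By tumor, 19, 37 and 17 keratins exceeded 3 reads in the footpad and 8, 33 and 29 in the flank. The highest level of these 45 genes was found in footpad tumor 2 for 17 genes and in flank tumor 2 for 20 genes, and the remaining 4 tumors held the highest level of 3, 1, 1 and 3 genes (footpad 1, footpad 3, flank 1 and flank 3). Krt84, Krt39, Krt74, Krt76, Krt4, Krt13 and Krt88 had 0 reads in every tumor, and Krt12 and Krt77 did not exceed 3 reads, so that 9 genes were at or below the limit. Among these, Krt4, Krt13 and Krt76 are mucosal keratins and Krt12 is the keratin of the cornea, and at this depth none of that class was detectable.

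The keratins lie in 2 clusters, and for all 54 a RefSeq gene was found by identifier. Of these, 27 lie on chromosome 11 between positions 99232761 and 100269951 (GRCm38.p6) and 27 on chromosome 15 between 101348315 and 102032026, the first cluster being type I and the second type II with the type I gene Krt18. Both dominant patterns crossed the clusters: Krt10 and Krt24 are on chromosome 11 and Krt2 on chromosome 15, and of the root sheath pair Krt25 is on chromosome 11 and Krt71 on chromosome 15. The RefSeq promoter table (GRCm38.p6) held 36 of the 54, and the motif TATAA, the core of the TATA box, was found on the gene's strand between 40 and 16 bases before the start in 17 of the 36 (47.2%), against 1035 of 27025 promoters of all genes (3.83%). With either strand counted it was found in 17 of 36 and in 1254 of 27025 (4.64%). The 60 bases before the start are shown for genes of the 2 patterns and for Krt9, which holds the same motif but was almost without reads. For Krt10 and Krt2 these bases lie within the gene's span (99385254 to 99397449 and 101810689 to 101818956). The start used for these 2 genes is thus not the outer end of the gene. All 6 genes lie on the minus strand, and capitals mark TATAA.
Krt2 (chr15:101818170-101818229): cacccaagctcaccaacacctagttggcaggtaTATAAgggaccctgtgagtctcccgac
Krt10 (chr11:99389365-99389424): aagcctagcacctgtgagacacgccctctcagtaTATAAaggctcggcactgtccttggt
Krt24 (chr11:99285263-99285322): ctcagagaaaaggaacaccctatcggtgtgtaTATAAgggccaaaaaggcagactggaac
Krt9 (chr11:100193247-100193306): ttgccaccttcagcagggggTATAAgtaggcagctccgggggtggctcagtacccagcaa
Krt25 (chr11:99322952-99323011): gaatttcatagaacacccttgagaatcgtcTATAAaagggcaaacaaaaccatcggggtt
Krt71 (chr15:101743098-101743157): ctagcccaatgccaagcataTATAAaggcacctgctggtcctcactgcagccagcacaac

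Basal keratins were highest in footpad tumor 2 and overlapped between the sites. Krt5, the type II keratin of the basal layer, was at 3.07, 25.2 and 0.163 CPM in the footpad and 0, 0.513 and 0.655 CPM in the flank. Its partner Krt14 was at 3.63, 49.1 and 0.714 CPM in the footpad and 0.0517, 0.992 and 3.34 CPM in the flank. For both genes footpad tumor 3 lay below flank tumors 2 and 3. The fitted log2 fold change, footpad over flank, was 4.59 ± 1.73 (SE) for Krt5 and 3.61 ± 1.64 for Krt14, and the Benjamini-Hochberg adjusted p over all genes was 0.154 and 0.218 in edgeR's quasi-likelihood test. Without footpad tumor 2 the value for Krt14 dropped to 0.57 and that for Krt5 to 2.04. Krt15, a keratin of basal cells and of the follicle bulge, reached 2.67 CPM in footpad tumor 2, 0.122 CPM in footpad tumor 3 and 0.208 CPM in flank tumor 3, was at 0 in the other tumors, and had too few reads to be tested.

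Suprabasal keratins held the largest differences between tumors. Krt1, the first type II keratin of cells that leave the basal layer, was at 6.91, 62.6 and 2.39 CPM in the footpad and 0, 0.188 and 1.05 CPM in the flank. Krt10, its type I partner, was at 6.84, 281 and 2.12 CPM in the footpad and 0.0517, 0.274 and 1.92 CPM in the flank. For both genes all 3 footpad tumors lay above all 3 flank tumors, for Krt10 with a narrow gap between footpad tumor 3 and flank tumor 3. Krt2, the type II keratin of the upper epidermis, was at 6.55, 591 and 0.531 CPM in the footpad and 0, 0 and 1.69 CPM in the flank, so the sites overlapped through footpad tumor 3.

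The fitted log2 fold change was 5.83 ± 1.61 for Krt1, 7.00 ± 2.09 for Krt10 and 8.43 ± 2.76 for Krt2. None passed the threshold over all genes tested by edgeR's quasi-likelihood test, with adjusted p-values of 0.0767, 0.0937 and 0.114. DESeq2, run as an alternative, gave Krt1 an adjusted p of 0.0264 and gave none for Krt10 and Krt2, which it set aside. Without footpad tumor 2 the log2 fold changes by edgeR were 3.47, 2.57 and 2.63, so the size of each rested on that tumor while the sign did not. Krt78, another suprabasal type II keratin, was at 3.56 CPM in footpad tumor 2 and 0.0639 CPM in flank tumor 3, and had 0 reads in the other 4 tumors.

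Ratios within a tumor do not depend on how much epidermal RNA it held, provided that all reads of both genes came from the epidermis. They were taken from the length-scaled FPKM values. Root sheath keratins made up 0.454%, 1.10% and 0% of the keratin FPKM in the footpad tumors. In flank tumors 2 and 3 they made up 49.3% and 10.2%. The part of follicle cells in the ratios was not tested. The ratio of Krt10 to Krt14 was 1.32, 4.52 and 2.41 in the footpad tumors, and 0.0443 and 0.451 in flank tumors 2 and 3, the former from only 16 Krt10 reads. The length scaling of Krt10 was unlike in these 2 tumors, with 0.0253 FPKM at 0.274 CPM in flank tumor 2 and 0.812 FPKM at 1.92 CPM in flank tumor 3. The size of the ratio in flank tumor 2 is thus uncertain, but by reads Krt10 also lay below Krt14 there, at 16 against 58. Flank tumor 1 had too few reads of either gene for a ratio. Suprabasal Krt10 thus exceeded basal Krt14 in every footpad tumor and lay below it in both flank tumors with a ratio. The ratio of Krt1 to Krt5 was 2.04, 2.24 and 13.4 in the footpad and 0.309 and 1.44 in flank tumors 2 and 3, so here too the footpad values were the higher ones. The value of 13.4 rests on 8 Krt5 reads and that of 0.309 on 11 Krt1 reads, so the size of both is uncertain. With 3 values against 2 the smallest two-sided p of an exact permutation test is 0.2, and no test was made.

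Footpad tumor 2 also differed from the other tumors in the order of its suprabasal keratins. Per length, Krt2 was 8.84 times Krt1 there, against 0.887 and 0.206 in footpad tumors 1 and 3 and 1.51 in flank tumor 3. Krt10 was 5.23 times Krt1 in footpad tumor 2, against 1.02 and 1.03 times in footpad tumors 1 and 3 and 2.14 times in flank tumor 3. In flank tumor 2 the ratio was 0.367, but by reads the order was the other one, with 16 of Krt10 and 11 of Krt1. In FPKM, Krt2 was at 2.05, 213 and 0.182 in the footpad tumors and Krt10 at 2.36, 126 and 0.916. The keratin of the upper layers thus outweighed Krt1 by the most in footpad tumor 2.

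Krt9, the keratin typical of volar epidermis, was not detected in any footpad tumor. Its read counts were 0, 0 and 0 in the footpad and 7, 0 and 0 in the flank, so that flank tumor 1, at 0.121 CPM, was the only tumor with reads. In footpad tumor 2, where Krt2 had 40570 reads and Krt10 had 19314, a count of 0 allows a Krt9 level of up to 0.0437 CPM. Too few reads fell on Krt9 for a test. The 0 counts therefore hold in the library with by far the most suprabasal keratin reads. En1, a transcription factor of ventral limb skin, was at 0.202, 0.291 and 0.429 CPM in the footpad and 0, 0.137 and 0 CPM in the flank. The En1 values did not overlap between the sites, but the gene did not pass the test (log2 fold change 2.71 ± 1.20, adjusted p = 0.209 by edgeR). None of the 4 tested genes of the sweat gland and volar skin list, of which En1 is 1, was called. Foxc1, which made up most of the list, was at 9.98, 11.2 and 12.1 CPM in the footpad and 12.8, 19.3 and 20.5 CPM in the flank, the opposite order to En1 (log2 fold change -0.66 ± 0.22, adjusted p = 0.116 by edgeR). Aqp5, a water channel of sweat glands, was at 0.224, 0.627 and 0.612 CPM against 0.172, 0.0513 and 0.0319 CPM (adjusted p = 0.102 by edgeR), Foxa1 lay between 0.188 and 0.326 CPM in every tumor, and the list summed to 10.7, 12.4 and 13.4 CPM in the footpad and 13.2, 19.7 and 20.8 CPM in the flank.

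Krt24, a type I keratin described in differentiated epidermal cells, was the gene most restricted to footpad tumor 2. It had 11, 2740 and 0 reads in the footpad tumors and 0 in each flank tumor, which gave 0.247 and 39.9 CPM in footpad tumors 1 and 2. It was not tested, because it had enough reads in too few tumors to pass the filter on low counts. Across the 15 genes that were highest in footpad tumor 2 and had over 3 reads in the next tumor, the fold over that next tumor had a median of 9.06. It was 162 for Krt24, 90.2 for Krt2, 55.6 for Krt78, 41.1 for Krt10 and 13.5 for Krt14. At the other end it was 1.20 for Krt222, 1.12 for Krt80 and 1.11 for Krt6a, so the excess in footpad tumor 2 was very unequal between keratins.

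Keratins of stressed epidermis and of appendages overlapped between the sites. Krt6a, a keratin of wounded epidermis and of the follicle, was at 0.583, 2.55 and 1.10 CPM in the footpad and 0, 0.804 and 2.30 CPM in the flank. Krt16, its type I partner, was at 0.673, 3.96 and 0.796 CPM in the footpad and 0, 0 and 0.974 CPM in the flank, and Krt17, of appendages and wounds, at 0.920, 4.11 and 0.429 CPM against 0.241, 1.01 and 1.79 CPM. In Krt6b, a close copy of Krt6a, flank tumor 3 was highest at 2.38 CPM, against 0.247, 0.729 and 0.469 CPM in the footpad. None of the 4 passed the test, with log2 fold changes of 0.45 ± 1.24, 2.47 ± 1.57, 0.85 ± 0.93 and -0.85 ± 1.35 for Krt6a, Krt16, Krt17 and Krt6b and adjusted p-values of 0.851, 0.366, 0.604 and 0.728 by edgeR. Of the 50-base words in the transcripts of Krt6a and Krt6b, 40.2% and 44.5% were shared with the other gene, so the split of reads between them is uncertain.

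Among simple-epithelium keratins was the only keratin that passed the test. Krt8, the type II keratin of simple epithelia, had 11, 12 and 12 reads in the footpad tumors and 0 reads in every flank tumor, or 0.247, 0.175 and 0.245 CPM. Set against the detection limit of 3 reads in each flank tumor, the footpad mean was at least 4.42-fold higher, and the lowest footpad tumor at least 3.38-fold higher. By edgeR's quasi-likelihood test the adjusted p was 0.0397, and it lay between 0.0619 and 0.153 when any 1 tumor was left out, so the call was lost without each of the 6 tumors. Krt8 passed the filter on low counts only through the footpad tumors in which it is high, and without that filter its adjusted p by edgeR was 0.0667, above the threshold. A long non-coding gene, Gm36026, is annotated on the opposite strand of Krt8, and whether counting used the strand is not stated. The fitted fold change depends on the prior count and is no bound. Its type I partner Krt18 did not follow it, with 4, 0 and 0 reads in the footpad and 0, 6 and 0 in the flank.

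Krt19, a type I simple keratin also made in the follicle bulge, had 38, 34 and 26 reads in the footpad and 5, 9 and 2 in the flank, or 0.852, 0.495 and 0.531 against 0.0862, 0.154 and 0.0319 CPM. All footpad tumors lay above all flank tumors. Footpad tumor 2 was close to footpad tumor 3 and did not have the excess seen in the epidermal keratins. The log2 fold change was 2.76 ± 0.65 with an adjusted p of 0.0552 by edgeR, and 2.80 with an adjusted p of 0.0145 by DESeq2. Krt20, a keratin of gut epithelium and Merkel cells, went the other way, at 0.404, 0.131 and 0.490 CPM in the footpad and 0.862, 0.906 and 0.655 CPM in the flank. Without overlap between the sites, it had a log2 fold change of -1.25 ± 0.55 and an adjusted p of 0.208 by edgeR. Krt7, a keratin of simple and glandular epithelia, lay between 0 and 0.286 CPM and overlapped between the sites. The 5 simple keratins together held only 71, 67 and 76 reads in the footpad tumors and 66, 68 and 49 in the flank tumors, so this class did not show the excess in footpad tumor 2. Of other marker lists, the 6 genes of simple epithelium and mesothelium summed to 0.606, 6.48 and 0.633 CPM in the footpad and 1.55, 2.03 and 1.12 CPM in the flank, which overlapped. The 6 Merkel cell genes, Krt20 among them, summed to 8.55, 4.97 and 7.65 CPM in the footpad and 2.72, 3.49 and 2.84 CPM in the flank, so every footpad tumor lay above every flank tumor, as for Krt8 and opposite to Krt20. Most of this sum was Piezo2, a touch channel of Merkel cells and sensory neurons, which was called higher in the footpad (log2 fold change 1.65 ± 0.29, adjusted p = 0.0271 by edgeR). Atoh1, which defines Merkel cells, had 0 reads in the footpad tumors and at most 4 in a flank tumor. The part of these cells in the Krt8 and Krt20 levels was not tested.

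**Figure D2:**
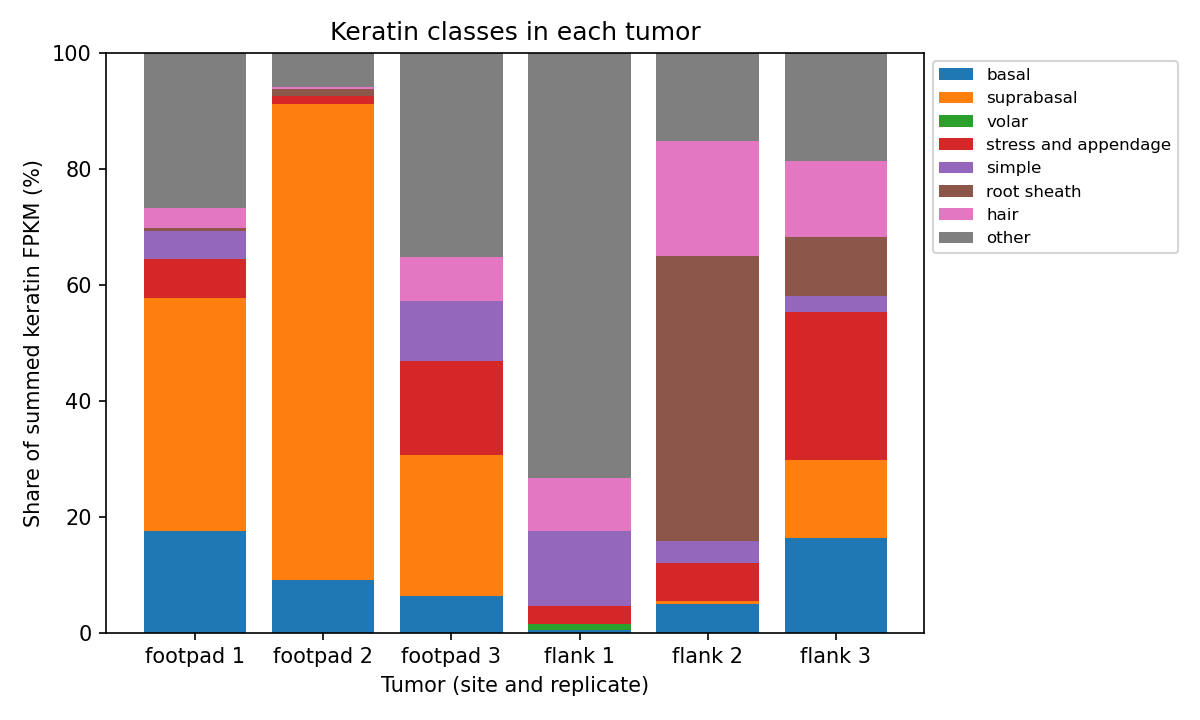
Share (%) of the summed keratin FPKM of each tumor that falls on each keratin class, by color. Suprabasal keratins make up 82.1% in footpad tumor 2, root sheath keratins 49.3% in flank tumor 2, and keratins outside these classes, mostly Krt80 and Krt222, 73.4% in flank tumor 1.

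Keratins of the inner root sheath, the sleeve that guides the growing hair, were carried by flank tumor 2 and to a lesser degree by footpad tumor 2 and flank tumor 3. Krt71, a type II keratin of this sheath, was at 0, 2.11 and 0 CPM in the footpad and 0, 6.34 and 0.847 CPM in the flank, from 145 reads in footpad tumor 2 and 371 and 53 reads in flank tumors 2 and 3. Its type I companions Krt25 and Krt27 were at 0 in the same 3 tumors. Krt25 was at 1.73 CPM in footpad tumor 2 and 4.10 and 0.719 CPM in flank tumors 2 and 3, and Krt27 at 1.17, 3.18 and 0.559 CPM. Footpad tumors 1 and 3 and flank tumor 1 thus had no read on any of the 3 genes.

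In the 3 tumors with reads these genes kept close proportions. The FPKM ratio of Krt25 to Krt71 was 0.895, 0.708 and 0.936 in footpad tumor 2, flank tumor 2 and flank tumor 3, and that of Krt27 to Krt71 was 0.762, 0.697 and 0.923. No site difference was called for Krt71, Krt25 or Krt27, whose log2 fold changes were -1.73 ± 2.02, -1.43 ± 1.95 and -1.63 ± 1.89 (adjusted p = 0.628, 0.678 and 0.626 by edgeR). They were 0.74, 0.70 and 0.49 without flank tumor 2. Without footpad tumor 2 the footpad held no read of these genes, and the fitted values (-10.03, -9.46 and -9.09) then depend on the prior count. Krt73, also of the inner root sheath, had 0.714 CPM in footpad tumor 2 and 0.530 and 0.208 CPM in flank tumors 2 and 3.

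The same class held smaller genes and, besides Krt73 (highest in footpad tumor 2), 1 exception. Krt28, Krt26, Krt72 and Krt75, keratins of the inner root sheath and the companion layer, were highest in flank tumor 2 at 0.684, 0.427, 0.445 and 0.239 CPM. Krt79, which marks the infundibulum and the upper hair canal, was at 0.202, 4.20 and 0 CPM in the footpad and 0, 0.359 and 0.399 CPM in the flank (log2 fold change 2.54 ± 1.76, adjusted p = 0.405 by edgeR). It thus followed the epidermal keratins and not Krt71, and its log2 fold change turned to -1.33 without footpad tumor 2. In all, 7 of the 9 genes of this class with over 3 reads were highest in flank tumor 2.

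Hair keratins, the cysteine-rich keratins of the shaft, had few reads apart from Krt87. The 14 others held 57 reads in footpad tumor 2, 262 in flank tumor 2, 28 in flank tumor 3 and 0 in the remaining 3 tumors, or 0.831, 4.48 and 0.447 CPM. These were the same 3 tumors that carried root sheath keratins. Of the 12 with over 3 reads in a tumor, 11 were highest in flank tumor 2, led by Krt81 at 1.16 CPM from 68 reads, Krt34 at 0.564 CPM, and Krt33a and Krt83 at 0.547 CPM each. Below these came Krt86 at 0.462, Krt31 at 0.376, Krt35 at 0.239, Krt32 at 0.205, Krt33b at 0.171, and Krt36 and Krt40 at 0.103 CPM. Krt82 was highest in flank tumor 3 at 0.0799 CPM.

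Of the 50-base words of Krt86, Krt81, Krt34, Krt31 and Krt33b, between 24.2% and 43.3% occur in another keratin transcript, so that levels of single hair keratins are uncertain while their sum is less so. Krt87 was unlike them, at 1.30, 2.39 and 1.27 CPM in the footpad and 0.793, 1.56 and 3.21 CPM in the flank (log2 fold change -0.16 ± 0.55, adjusted p = 0.881 by edgeR). It was detected in every tumor, also where the other 14 had 0 reads. Foxn1, whose product switches on hair keratins in the follicle, had 8 reads in footpad tumor 2 (0.117 CPM) and 0 in the other 5, and its reads were not examined for the allele.

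Krt80 and Krt222 were detected in all 6 tumors, without the excess in footpad tumor 2 that the epidermal keratins had. Krt80, a type II keratin of differentiating epithelia, was at 13.1, 14.6 and 7.67 CPM in the footpad and 8.38, 7.25 and 7.64 CPM in the flank. Krt222, a gene of truncated keratin form, was at 2.80, 3.35 and 2.1 CPM in the footpad and 2.31, 0.650 and 0.815 CPM in the flank. The sites overlapped for both, and neither passed the test, with log2 fold changes of 0.61 ± 0.27 and 1.13 ± 0.52 and adjusted p-values of 0.206 and 0.223 by edgeR. In flank tumor 1, the tumor with the fewest keratin reads, these 2 genes took 81.7% of them. Krt23, Krt42 and Krt90, the others outside the named classes, did not exceed 0.314 CPM. As over Krt8, a gene of the opposite strand is annotated over Krt80, Krt10, Krt6a and Krt7.

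Tested across all genes, 21 keratins passed the filter on low counts and 33 did not. A gene could pass it through 1 site alone, so these 21 are not a sample of the family. A gene was called where the Benjamini-Hochberg adjusted p of edgeR's quasi-likelihood test was under 0.05 and the levels differed at least 2-fold. In this way 1 keratin (Krt8) was called higher in the footpad, against 2.89% of the 17210 genes tested. No keratin was called lower, against 0.872% of all genes, and at an unadjusted p under 0.05 there were 6 higher, against 14.8% of all genes, and 0 lower, against 10.5%. DESeq2 called 3 higher (Krt8, Krt19 and Krt1), against 6.71% of all genes, and 0 lower, against 2.05%.

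By the ranges alone, 4 of the 21 (Krt8, Krt19, Krt1 and Krt10) lay without overlap higher in the footpad, against 17.5% of all genes tested, and 1 (Krt20) lower, against 15.0%. The share without overlap was thus near that of all genes in the upward direction and below it in the downward one. The fitted level was higher in the footpad for 15 and lower for 6, with a median log2 fold change of 0.85, against 49.7% of all genes fitted higher and a median of -0.00. Leaving out footpad tumor 2 moved Krt2, Krt10, Krt79, Krt14, Krt5, Krt1 and Krt17 by more than their standard errors, and left Krt71, Krt25, Krt27 and Krt73 with no footpad read, whereas Krt8, Krt19, Krt20 and Krt80 moved by less than theirs.

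**Figure D3:**
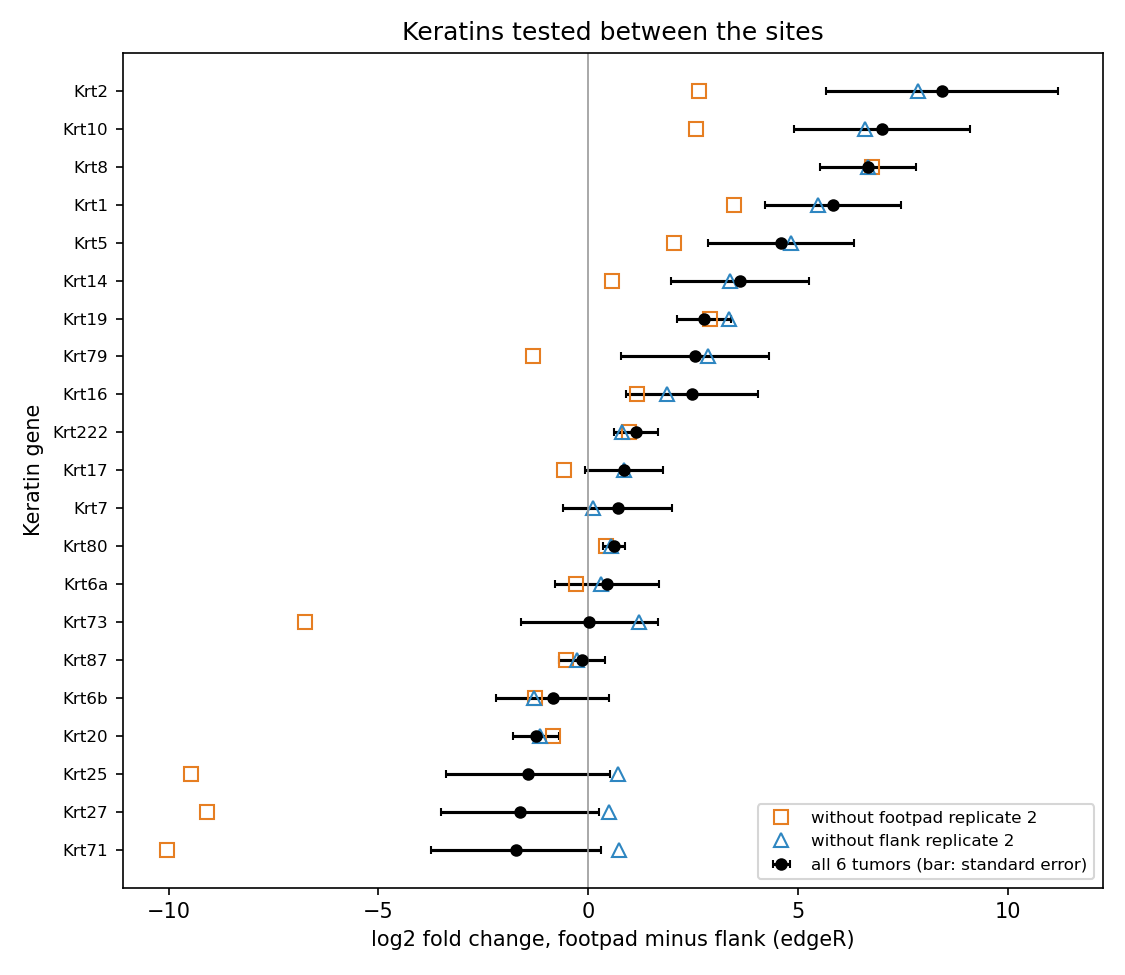
Log2 fold change, footpad over flank, of the 21 tested keratins by edgeR, with filled points and standard error bars for all 6 tumors, open squares for the fit without footpad tumor 2 and open triangles for the fit without flank tumor 2. Squares lie far to the left of the filled points for Krt2, Krt10 and Krt14, those of Krt71, Krt25, Krt27 and Krt73 rest on 0 footpad reads and are set by the prior count, the triangles of Krt71, Krt25 and Krt27 cross 0, while Krt8 and Krt19 stay to the right of 0 in all 3 fits.

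Other genes of keratinocytes had the same tumor at the top. Of 59 listed genes that are not keratins, grouped as cell junction, cornified envelope, transcription factor and basal attachment, 58 had over 3 reads in a tumor and 52 of these were highest in footpad tumor 2. The share of all genes that were highest there was not counted. Of the 40 tested by edgeR, 3 were called higher, against 2.89% of all genes tested, and 0 lower, against 0.872%. Among the 3 were Asprv1 and Cldn1 (the latter named after its values were seen). At an unadjusted p under 0.05, 29 were higher and 0 lower, against the 14.8% and 10.5% of all genes given above. The median log2 fold change was 2.79, and 38 were fitted higher, against 49.7% of all genes tested. As with the keratins, a gene could pass the filter on low counts through 1 site alone. These 40 are therefore not a sample of the 59, and their direction depends in part on the filter.

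Desmosomes, the junctions to which keratin filaments attach, were among the groups concentrated in footpad tumor 2. The 17 junction genes summed to 73.8, 607 and 57.2 CPM in the footpad and 32.9, 50.7 and 40.7 CPM in the flank. Dsp, the plakin that ties keratins to the desmosome, was at 5.05, 145 and 1.94 CPM against 3.22, 3.73 and 3.05 CPM, and the desmosomal cadherin Dsg1a at 3.05, 83.6 and 0.408 CPM against 0, 0.410 and 0.974 CPM. In both, footpad tumor 3 was below at least 1 flank tumor. Perp and Jup, which are also made outside the epidermis, were less unequal, with 117 and 32.8 CPM in footpad tumor 2 and at least 17.7 and 6.29 CPM in every other tumor.

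The cornified envelope genes, which build the outermost layer, summed to 77.3, 1015 and 21.2 CPM in the footpad and 30.5, 17.6 and 16.3 CPM in the flank. Hrnr was at 17.9, 659.8 and 2.45 CPM against 0, 0.171 and 3.10 CPM, and Flg, which bundles keratin filaments, at 17.1, 149 and 1.73 CPM against 0, 0.752 and 1.81 CPM. Both thus overlapped between the sites through footpad tumor 3, as Krt2 did. Asprv1, a protease that cuts profilaggrin, was at 22.6, 42.5 and 7.79 CPM in the footpad and 0.397, 1.15 and 0.847 CPM in the flank, without overlap and past the test (log2 fold change 4.93 ± 0.70, adjusted p = 0.0174 by edgeR). Lgals7 was highest in flank tumor 1, at 24.2 CPM against 11.3 CPM in footpad tumor 2.

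Of the transcription factors, Trp63, the regulator of stratified epithelia, was at 0.179, 4.90 and 0.286 CPM in the footpad and 0.0517, 0.137 and 0.0799 CPM in the flank (log2 fold change 4.30 ± 1.34, adjusted p = 0.102 by edgeR). Klf4 and Tfap2a, which are not limited to keratinocytes, were at 6.76 CPM or more in every tumor. Among the 8 basal attachment genes, which anchor the epidermis to its base, Dst and Itga6 took most of the reads in every tumor, at 564 to 1681 CPM and 76.2 to 190.4 CPM. For Dst footpad tumor 2 was the lowest of its site, and for Itga6 it was the highest of all 6 tumors by a small margin (190.4 against 173 and 179 CPM in the other footpad tumors). Without Dst and Itga6 the 4 groups summed to 213, 1712 and 121 CPM in the footpad and 90.9, 95.5 and 81.3 CPM in the flank, with every footpad tumor above every flank tumor. In footpad tumor 3 the largest parts were Perp (35.1 CPM), Tfap2a (14.1 CPM) and Jup (11.3 CPM), which are not limited to keratinocytes. There Asprv1 (7.79 CPM) lay above every flank tumor, but Dsp (1.94 CPM) lay below every flank tumor and Hrnr (2.45 CPM) below flank tumor 3. The order of the sum thus does not hold for each gene.

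Markers of other tissues also moved with footpad tumor 2. Of 14 skeletal muscle genes, 13 were highest there, and their sum was 43.1, 664 and 11.5 CPM in the footpad and 17.0, 86.1 and 16.3 CPM in the flank. The melanocyte sum was 10060.0, 18620.5 and 12921 CPM in the footpad and 25501, 14808 and 17064 CPM in the flank, so footpad tumor 2 was the highest of its site in this sum as well. Sox10 and Mlana, given here after their values were seen, did not share this order. Sox10 was at 191, 160.4 and 179 CPM in the footpad, and Mlana at 468 CPM in footpad tumor 2 against 485 CPM in footpad tumor 3. The other melanocyte genes were highest of the site in footpad tumor 2. The part of these tissues in the keratin levels was not tested. The 16 hair follicle genes summed to 55.1 to 68.9 CPM in all tumors. Most of each sum was Trps1, at 38.0 to 51.1 CPM, so the sum mainly follows that 1 gene and does not measure follicle content. Tchh, the trichohyalin of the inner root sheath, was at 0.247, 1.63 and 0.163 CPM in the footpad and 0, 12.4 and 0.607 CPM in the flank. Tchh thus had its highest level in flank tumor 2, as Krt71, Krt25 and Krt27 had, but the list did not follow it as a set. Of the 12 follicle genes with over 3 reads in a tumor, 5 were highest in footpad tumor 2. Sox9 was highest in flank tumor 1, at 15.3 CPM.

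**Figure D4:**
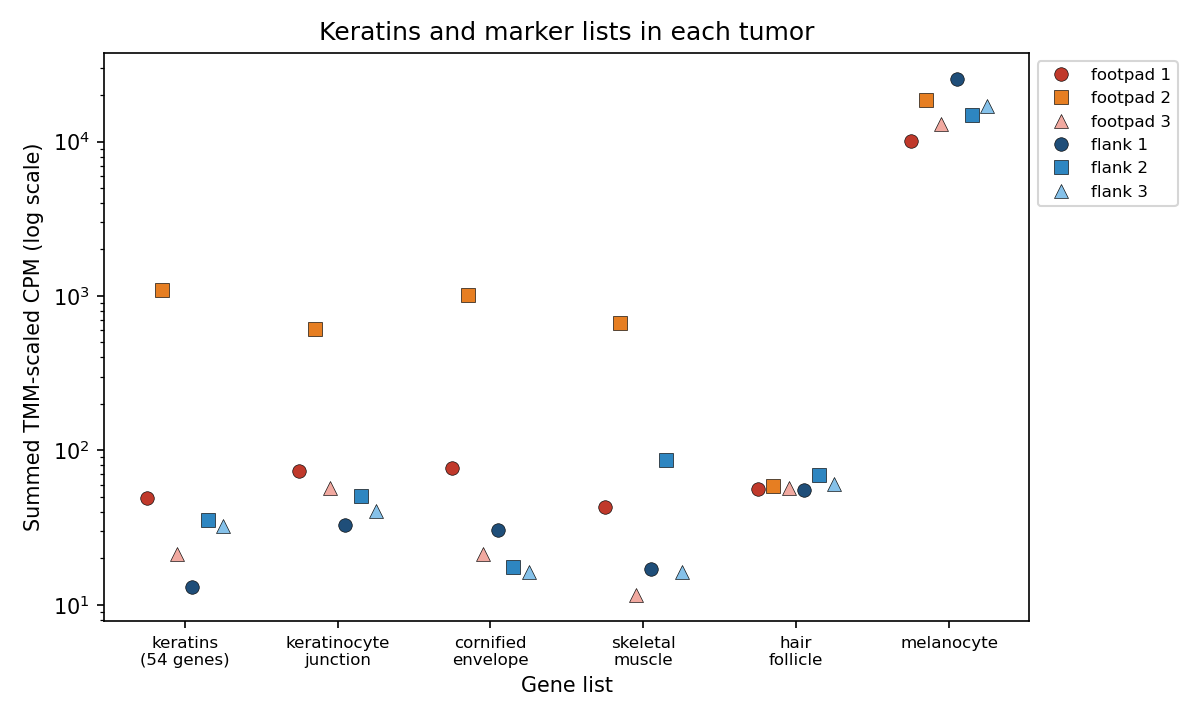
Summed TMM-scaled CPM (log axis) of the 54 keratins and of marker gene lists in each tumor, red shades for footpad and blue shades for flank. Footpad tumor 2 stands above the other tumors for keratins (1100.0 CPM), junction genes (607 CPM), cornified envelope genes (1015 CPM) and skeletal muscle genes (664 CPM), but not for hair follicle or melanocyte genes. Most of the hair follicle sum is Trps1 in every tumor.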

How the data were processed

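RNA of 6 tumors, 3 of the footpad and 3 of the flank, was sequenced by the authors, 1 library each. Per the labels and the methods, reads were checked with FastQC 0.11.7, trimmed with Trimmomatic and aligned with HISAT2 2.1.0 to mm10. The deposited values are whole-number read counts per RefSeq gene, not normalized, and FPKM, in which the authors divided by transcript length and by depth. How reads were counted, with which program and strand setting, and what was done with reads matching more than 1 gene, is not given in the sources used here.

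The count model was edgeR 4.0.16 under R 4.3.3 (TMM scaling over all genes, filterByExpr at its defaults, glmQLFit and glmQLFTest, with Benjamini-Hochberg adjustment over the 17210 genes tested). The call rule was an adjusted p below 0.05 with levels at least 2-fold apart. Standard errors were taken as log2 fold change over the root of F. FPKM served for shares of classes and for ratios between genes. Shared 50-base words and overlapping genes came from GENCODE transcripts of the same build, and promoters from RefSeq. The fits were also run on simulated data with known changes. No protein table was used here.

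The members, classes, gene lists and tests were chosen with earlier results of these data known. Keratins at 1 CPM or more in a tumor were named with all values, or as the 4 highest of a class, and other genes as the 4 highest of a list at most, with Foxn1, En1 and Trp63. The values of 1 listed gene are not reported here. Alternatives were DESeq2 1.42.0, limma 3.58.1 on log2(FPKM + 1) and log2(FPKM + 0.1), other filters, upper-quartile scaling, a replicate block and leaving out tumors.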

Additional observations from a re-analysis of the deposited data

How the results depend on the processing

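Over all genes, counts called higher and lower in the footpad were 497 and 150. They were 1154 and 352 with DESeq2, 271 and 95 with limma on log2(FPKM + 1), and 0 to 639 and 0 to 197 when 1 tumor was left out. With no fold threshold 248 were called lower. Without both tumors numbered 2, a choice made after seeing the data, 847 were called higher.

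For keratins, the 1 call higher (Krt8) of 21 tested became 3 with DESeq2 (6.71% of all genes). It became 2 with limma on log2(FPKM + 0.1) (639 of all 17210 genes). It became 0 with limma on log2(FPKM + 1), with no filter, with at least 10 counts in every tumor (where Krt8 could not be tested), without any 1 tumor (0 to 0) and without both tumors numbered 2. In these 5 settings 271, 472, 557, 0 to 639 and 847 of all genes were called higher. Keratins tested there numbered 21, 47, 4, 21 to 28 and 16. The 3 other keratinocyte genes of 40 tested became 14 of 40 with DESeq2 (6.71% of all genes) and 1 of 40 with limma on log2(FPKM + 1) (271 of all 17210 genes). They became 0 to 4 of 39 to 48 tested without 1 tumor (0 to 639 of all genes). Without both tumors numbered 2 they became 5 of 36 (847 of all 17274 genes). Keratins without overlap, higher in the footpad, numbered 4 to 9 of 21 without 1 tumor, against 20.3% to 25.1% of all genes with the same tumors left out. They were 9 (20.3% of all genes) without footpad tumor 3, 7 (20.4%) without flank tumor 3 and 6 (23.3%) without flank tumor 1. The share of footpad tumor 2 in the keratin sum was 88.4% by FPKM, 88.3% unscaled and 78.1% without Krt2.

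Whether replicate numbers pair the tumors is not known. Deviations of same-numbered tumors correlated at 0.0607, -0.0985 and -0.118, within the range of the other pairs (-0.209 to 0.269). With 3 tumors per site such values cannot show whether tumors shared a host. With the replicate block 0 genes were called, 0 keratins and 0 other keratinocyte genes among them, and Krt6b (0.86), Krt73 (-1.18) and Krt87 (0.01) turned in sign.

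Among the log2 fold changes of keratins under all alternatives, 231 kept their sign and call and 24 changed sign. Krt73 turned to -0.04 with DESeq2, -0.02 with no filter, and -0.01 and -0.20 with limma at the larger and the smaller pseudocount, and Krt6b to 0.02 with the smaller one. Without both tumors numbered 2, Krt17 turned to -0.60, Krt6a to -0.45 and Krt79 to -1.01. Without 1 tumor, values ranged from -0.59 to 1.54 (Krt17), -9.09 to 0.49 (Krt27), -0.30 to 1.80 (Krt6a), -1.43 to 1.99 (Krt6b), -10.03 to 0.74 (Krt71), -9.46 to 0.70 (Krt25), -0.04 to 1.25 (Krt7), -6.76 to 1.21 (Krt73), -1.33 to 3.11 (Krt79) and -0.53 to 0.49 (Krt87). The cause of these changes was not tested beyond the tumors left out.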

Other observations

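Keratin-associated proteins, which fill the space between keratin filaments in the hair shaft, were counted after the keratin values had been seen. Of 54 listed Krtap genes, 13 had over 3 reads in at least 1 tumor. Reads on all 54 numbered 16, 31 and 1 in the footpad tumors and 11, 144 and 13 in the flank tumors. By tumor, 2, 3 and 0 of these genes exceeded 3 reads in the footpad and 1, 10 and 1 in the flank, so that flank tumor 2 was highest here as it was for hair keratins. No test was made.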
